A study of Mus musculus with 24 samples.

Results

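The Bcl2 family decides whether a cell under stress or short of cytokines lives or dies. Here, 10 of its genes are described across 24 RNA sequencing libraries of mouse CD4+ T cells. They are the anti-apoptotic genes Bcl2, Bcl2l1 (Bcl-xL) and Mcl1, the BH3-only genes Bcl2l11 (Bim), Bbc3 (Puma), Pmaip1 (Noxa), Bad and Bid, and the effectors Bax and Bak1. They were picked by gene symbol. They are 10 of 22009 named genes in the table, and all 10 had a mean of at least 1 RPKM over the time course, as did 10897 genes in all.

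The anti-apoptotic proteins sit on the outer mitochondrial membrane and hold the effectors in check. BH3-only proteins are produced or activated under stress or when cytokines run out, and they bind the anti-apoptotic proteins or the effectors directly. Free effectors form pores in the membrane, cytochrome c leaks out, and caspases are switched on. In T cells Bcl2 and Mcl1 are known for the survival of resting cells, Bcl2l1 for the survival of activated cells, and Bcl2l11 for the removal of cells after a response.

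All libraries came from CD4+ T cells of adult WT C57BL/6 mice, purified from spleen by negative selection on magnetic beads and pooled from several animals. The time course had 2 libraries of resting, unstimulated cells and 18 of cultures activated with anti-CD3 and anti-CD28, with 1 library for each of 3 conditions at 4, 8, 12, 16, 20 and 24 h. Th0 cultures received nothing more, Th1 cultures also anti-IL-4 and IL-12, and Th2 cultures also IL-4 with antibodies to IFN-γ and to IL-12. A further 4 libraries came from cells that had been stimulated for 16 h before actinomycin, a blocker of transcription, acted for 0, 1, 2 or 4 h, and the labels give no skewing condition for them. The labels call the cells purified, while the methods name naive cells, and resting and cultured libraries have different tags in their titles. Preparation and activation therefore cannot be told apart in a comparison with resting cells. Only the resting cells have a second library, and cells of several mice were pooled. Every p-value below therefore measures the spread between these libraries, not between mice.

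Values are RPKM, reads scaled to transcript length and to mapped reads, as the authors deposited them. Mapped reads were between 17512385 and 33017133 per library over the time course, 19759081 and 23541816 in the resting libraries, and between 18052931 and 25735543 in the actinomycin libraries. These depths were read from values that are whole multiples of what 1 read is worth. For Bcl2, Pmaip1 and Bax the number of reads behind each value could be read in the same way, and their exact Poisson 95% intervals cover counting error only. For the other 7 genes the reads behind a value are unknown.

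The label CD4+ T cell was checked against 9 CD4 T cell markers. All 9 were present at rest, with Cd3g the most abundant at 464 RPKM and the co-receptor Cd4 at 327 RPKM. Their summed level was 2225 and 2241 RPKM in the resting libraries and between 1436 RPKM (Th0 at 4 h) and 1960 RPKM (Th1 at 20 h) in the cultures. By limma, the log2 change of Cd4 itself was -1.04 at 4 h (adjusted p = 0.00104) and -1.15 at 12 h (adjusted p = 1.70e-04). Cd5 was higher at 12 h (1.29) and Bcl11b lower (-1.20), both named after their values were seen. At 24 h, 0 of 9 passed by limma, and 7 had means below rest. At an unadjusted p under 0.05, 2 were higher (33.3% of all genes) and 6 lower (35.2%). Transcripts of other spleen cells were also present, above all those of red cells at rest, although the methods for skewed cultures include lysis of red cells ahead of the purification. Their levels are given after the family's.

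Upstream windows are shown for 4 genes that passed at some time: Bcl2l1, Bcl2l11 and Bax, which rose, and Bbc3, which fell by 24 h. For each, 1 window is shown, picked with the matches known: the last of 3 for Bcl2l1, the first of 2 for Bcl2l11, the second of 3 for Bbc3, which lies inside the gene before an alternative start, and the only one for Bax. RefSeq gives 15 windows of 250 bases before a start for 9 of the 10 genes on GRCm38.p6, and none for Pmaip1. Both strands were searched for CACGTG (E-box), TTCNNNGAA (STAT), TGANTCA (AP-1), GTAAACA (FOXO) and GGGAA and CC with any 3 bases between them (NF-kB). Of 32807 windows of all genes, 6.02% hold the first, 7.02% the second, 6.75% the third, 3.16% the fourth and 4.95% the last. Among the 15 windows of the family, 2 held CACGTG (Bbc3 and Bax), 2 held GTAAACA (Bcl2l11 and Bbc3), 2 held the NF-kB letters (Bbc3 and Bak1), and none held TTCNNNGAA or TGANTCA. The sequences run 5' to 3' on the gene's strand up to the base before the start, none of their bases lies in an annotated exon, and capitals mark a match: GTAAACA at -227 to -221 of Bcl2l11, its reverse complement at -167 to -161 of Bbc3, and CACGTG at -9 to -4 of Bax. The Bcl2l1 window, which holds no match, lies at chr2:152831729-152831978 (minus strand), that of Bcl2l11 at chr2:128125788-128126037 (plus strand), that of Bbc3 at chr7:16310011-16310260 (plus strand) and that of Bax at chr7:45466899-45467148 (minus strand). A match is a description of these letters and not evidence of binding.
Bcl2l1: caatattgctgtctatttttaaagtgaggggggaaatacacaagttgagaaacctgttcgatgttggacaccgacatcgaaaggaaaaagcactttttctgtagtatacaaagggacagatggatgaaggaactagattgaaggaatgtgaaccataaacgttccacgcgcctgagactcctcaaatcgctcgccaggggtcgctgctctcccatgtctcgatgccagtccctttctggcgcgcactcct
Bcl2l11: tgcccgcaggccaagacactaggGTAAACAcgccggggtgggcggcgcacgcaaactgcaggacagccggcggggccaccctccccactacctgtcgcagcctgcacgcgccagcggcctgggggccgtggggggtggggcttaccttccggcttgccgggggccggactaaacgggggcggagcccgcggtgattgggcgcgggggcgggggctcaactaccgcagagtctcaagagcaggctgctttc
Bbc3: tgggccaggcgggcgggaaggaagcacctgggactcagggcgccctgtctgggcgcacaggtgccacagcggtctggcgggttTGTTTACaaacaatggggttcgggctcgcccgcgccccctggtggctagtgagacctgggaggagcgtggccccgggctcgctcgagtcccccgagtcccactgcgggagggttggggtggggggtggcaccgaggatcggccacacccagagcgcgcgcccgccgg
Bax: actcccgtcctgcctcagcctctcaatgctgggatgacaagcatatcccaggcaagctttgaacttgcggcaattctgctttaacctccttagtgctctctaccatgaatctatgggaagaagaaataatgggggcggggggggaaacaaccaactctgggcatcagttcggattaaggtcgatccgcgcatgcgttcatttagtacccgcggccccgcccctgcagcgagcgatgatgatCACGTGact

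In resting cells, the transcripts of the family spread over a wide range per length. Mcl1, which guards cells that depend on cytokines, had 252 ± 9.16 RPKM (SD, n = 2), above 98.8% of all named genes. Bax followed with 45.4 ± 1.34 RPKM, Bcl2l1 with 30.6 ± 0.911 RPKM and Bak1 with 26.5 ± 0.0537 RPKM (SD, n = 2 each). Below them were Bcl2l11 with 24.4 ± 1.07 RPKM and Bcl2 with 22.5 ± 1.37 RPKM, whose levels were within their spread of each other. The lowest were Bid with 12.3 ± 0.544 RPKM, Bad with 10.3 ± 1.46 RPKM, Bbc3 with 9.24 ± 0.992 RPKM and Pmaip1 with 8.17 ± 0.726 RPKM (SD, n = 2 each). Bad did not differ from Bbc3, nor Bbc3 from Pmaip1, beyond this spread.

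After activation, Bax and Bcl2l1 rose, Bcl2l11 rose at 4 and 12 h, and Pmaip1 and Bbc3 fell by 24 h. A gene passed when its log2(RPKM + 0.5) changed at least 2-fold at an adjusted p under 0.05 (limma, adjusted over all 10897 genes), with the 3 cultures of a time point as its libraries. The pseudocount understates the change of low genes. At 4 h, 2 of 10 members had risen, Bcl2l11 and Bax, where 2.61% of all genes rose, and 0 had fallen, where 7.97% fell. At an unadjusted p under 0.05, limma gave 4 higher members at 4 h (Mcl1, Bcl2l11, Bbc3 and Bax, against 16.3% of all genes) and 1 lower (Pmaip1, against 25.7%). At 12 h, 3 members had risen, Bcl2l1, Bcl2l11 and Bax, against 10.7% of all genes, and 0 had fallen, against 16.4%. At an unadjusted p under 0.05, limma gave 4 higher members there (Bcl2l1, Bcl2l11, Bid and Bax, against 30.6% of all genes) and 2 lower (Pmaip1 and Bad, against 34.7%). At 24 h, 2 members had risen, Bcl2l1 and Bax, against 12.7% of all genes, and 2 had fallen, Bbc3 and Pmaip1, against 17.4%. At an unadjusted p under 0.05, 3 members were higher there by limma (Bcl2l1, Bid and Bax, against 33.3% of all genes) and 2 lower (Bbc3 and Pmaip1, against 35.2%).

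**Figure D1:**
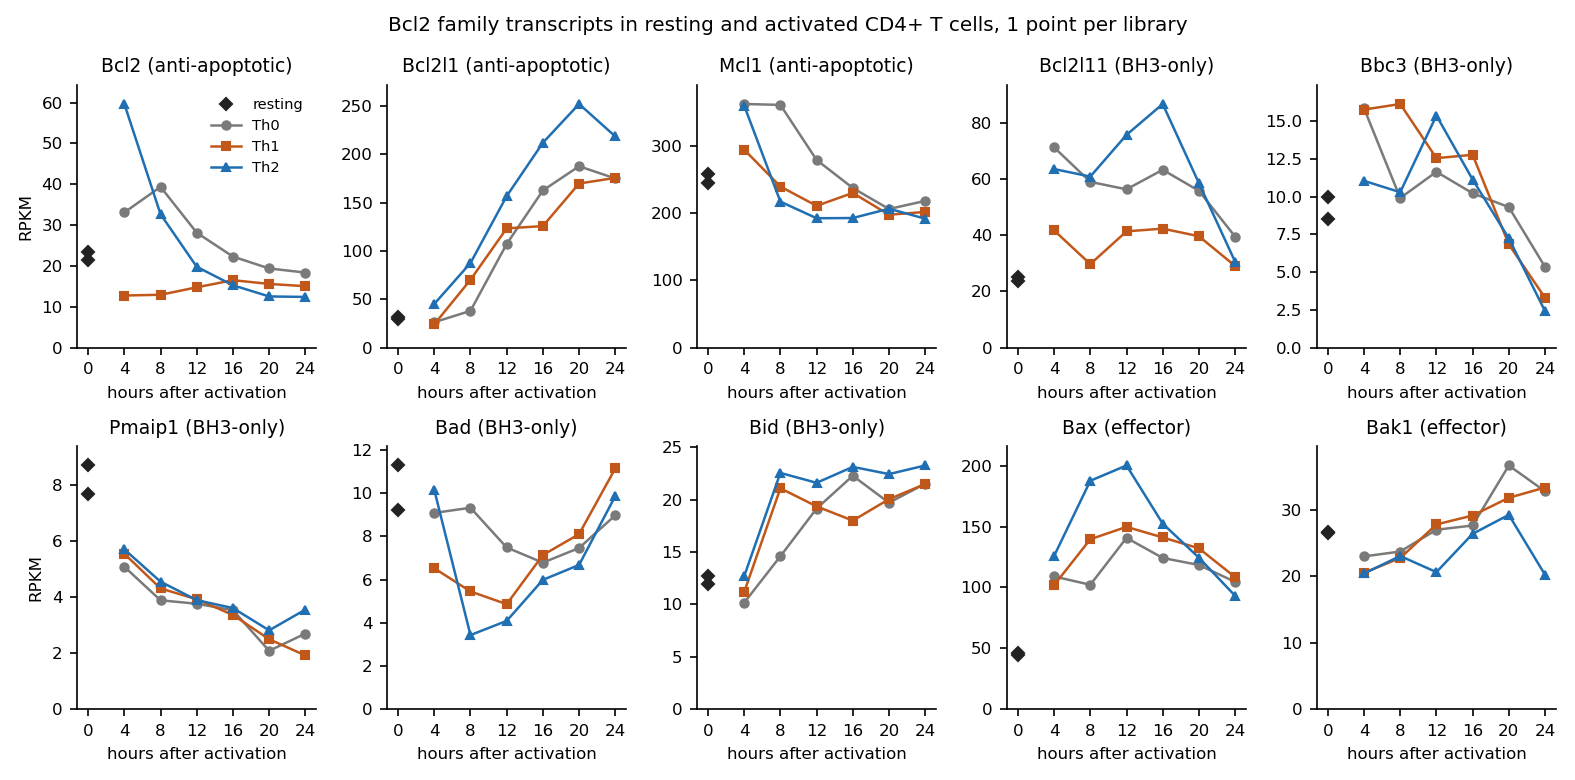
RPKM of each of the 10 genes against hours after activation, with 1 point per library: resting cells at 0 h, then Th0, Th1 and Th2 cultures joined by lines. Bcl2l1 climbs to between 169.8 and 252 RPKM at 20 h, Bax lies above both resting libraries in all 18 cultures, and Pmaip1 lies below both in all 18.

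The 3 time points are set against the same 2 resting libraries, so their changes are not independent of each other. The balance of rises and falls over all genes moved with the scaling. Of the genes that passed, 24.7% were higher at 4 h and 42.3% at 24 h, against 42.9% and 53.4% under quantile normalization. At 12 h the share was 39.4%, and 52.8% under quantile normalization. Quantile normalization moved the median change of all genes by 0.10 at 4 h, 0.16 at 12 h and 0.16 at 24 h on the log2 scale, and median-of-ratios scaling by 0.12 at 12 h and 0.13 at 24 h. Relative to that median, Bcl2l1 changed at 24 h by 2.64 as deposited and 2.34 under quantile normalization, and Pmaip1 by -1.42 and -1.21. The corresponding values were 1.19 and 0.83 for Bax and -1.24 and -1.10 for Bbc3.

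**Figure D2:**
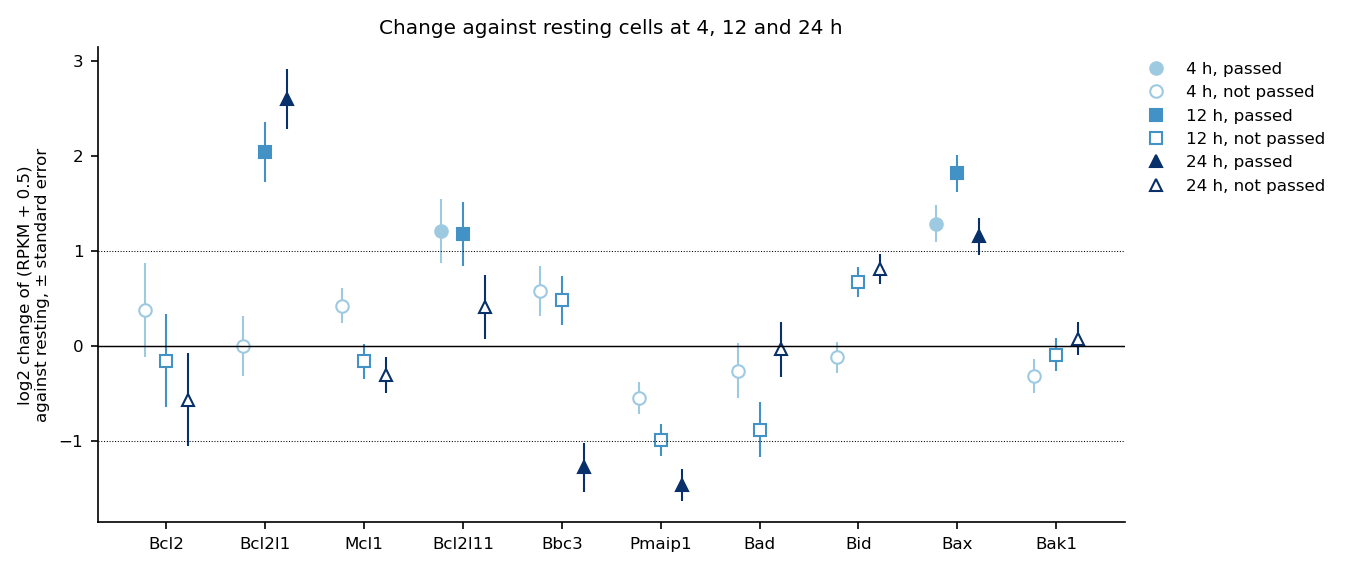
Log2 change of RPKM + 0.5 against resting cells for each gene at 4, 12 and 24 h, with standard errors from limma; filled symbols passed the threshold and dotted lines mark 2-fold. Bcl2l1 stands highest, at 2.61 at 24 h, and Pmaip1 lowest, at -1.46 at 24 h, and under quantile normalization Bbc3 and Bax at 24 h were within 2-fold.

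Bcl2l1 encodes Bcl-xL (ENSMUSG00000007659.18, chromosome 2 of GRCm38 from 152780668 to 152831728), which keeps activated lymphocytes alive. The resting libraries had 30.0 and 31.2 RPKM. At 4 h, its level was 26.3 (Th0), 24.1 (Th1) and 45.2 RPKM (Th2). Only the Th2 culture was above rest at that time, and the log2 change over the 3 cultures was -0.00012 (adjusted p = 1.0, limma), 0.076 under median-of-ratios and 0.058 under upper-quartile scaling. From 8 h, when Th0 had 38.0, Th1 70.2 and Th2 87.5 RPKM, every culture lay above both resting libraries. At 12 h the values were 107 (Th0), 123 (Th1) and 157 RPKM (Th2), a log2 change of 2.04 (SE 0.32, adjusted p = 4.51e-05, limma). The Th2 culture reached 252 RPKM at 20 h, the highest value of Bcl2l1 in the time course, when Th0 had 188 RPKM and Th1 169.8 RPKM. At 24 h, Th0 had 175, Th1 176 and Th2 219 RPKM, 6.09-fold above rest (log2 change 2.61, SE 0.32, adjusted p = 3.31e-06, limma). Both changes passed in all 15 alternatives run.

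Mcl1 encodes a short-lived anti-apoptotic protein (ENSMUSG00000038612.16, chromosome 3 from 95658788 to 95663176). Its resting libraries had 245 and 258 RPKM, and at 4 h Th0 had 363, Th1 295 and Th2 360.3 RPKM. All 3 cultures were above rest, but the log2 change of 0.42 (SE 0.19, adjusted p = 0.0925, limma) did not pass. At 8 h, Th0 alone was above rest, with 361 RPKM, while Th1 had 239.8 RPKM and Th2 217 RPKM. By 24 h the values were 218 (Th0), 202 (Th1) and 192 RPKM (Th2), lower than in either resting library. At 24 h its log2 change was -0.30 (SE 0.19, adjusted p = 0.161, limma), and between -0.50 and -0.16 over the alternatives. In 13 of 18 cultures Mcl1 lay below both resting libraries and in 5 above both.

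Bcl2, the founding member of the family (ENSMUSG00000057329.7, chromosome 1 from 106538178 to 106714274), began at 23.5 RPKM in the first resting library (22.7 to 24.3, from 3339 reads) and 21.6 RPKM in the second (20.9 to 22.3, from 3650 reads). At 4 and 8 h, the cultures differed more for this gene than for any other member, with a ratio of highest to lowest of 4.68 and 3.04, and from 12 h on by less than 2-fold. In Th2 it was 59.6 RPKM at 4 h (8425 reads, 58.4 to 60.9), then 32.6, 19.8, 15.3, 12.5 and 12.4 RPKM at 8, 12, 16, 20 and 24 h. In Th0 the values at the same 6 times were 33.1, 39.4, 28.1, 22.3, 19.4 and 18.4 RPKM. In Th1 they were 12.7, 12.9, 14.8, 16.5, 15.6 and 15.0 RPKM. All 6 Th1 values were therefore below both resting libraries, while Th0 and Th2 began above them and ended below. Pooled over the cultures, the log2 change was 0.38 at 4 h (SE 0.49, adjusted p = 0.597, limma), -0.15 at 12 h (adjusted p = 0.801) and -0.56 at 24 h (adjusted p = 0.325), and none passed. Without the Th2 cultures the change at 4 h was -0.13, and without the Th1 cultures that at 12 h was 0.066.

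**Figure D3:**
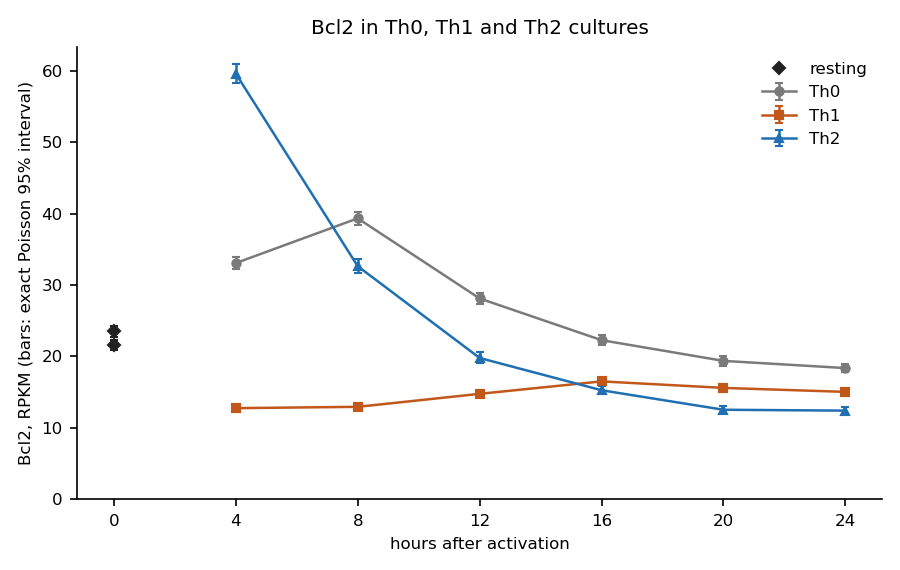
RPKM of Bcl2 against hours after activation in resting cells and in Th0, Th1 and Th2 cultures, 1 library per point, with exact Poisson 95% intervals for counting error only. The Th2 line starts at 59.6 RPKM and ends lowest at 12.4 RPKM, whereas the Th1 line stays between 12.7 and 16.5 RPKM.

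As shares of the summed RPKM of Bcl2, Bcl2l1 and Mcl1, the anti-apoptotic transcripts shifted from Mcl1 towards Bcl2l1. Mcl1 made up 82.1% and 83.0% of the sum in the resting libraries, Bcl2l1 10.0% and 10.1%, and Bcl2 7.87% and 6.94%. At 24 h, Bcl2l1 made up 42.5% in Th0, 44.7% in Th1 and 51.7% in Th2. In the Th2 cultures Bcl2l1 was above Mcl1 from 16 h on, with 50.5%, 53.5% and 51.7% of the sum at 16, 20 and 24 h. In Th0 and Th1, Mcl1 was the larger share at every time point. Bcl2 was at its largest share in Th2 at 4 h, with 12.8%, and at its smallest in Th2 at 20 h, with 2.66%. The sum itself was 299 and 311 RPKM at rest and between 323 RPKM (Th1 at 8 h) and 471 RPKM (Th2 at 20 h) in the cultures.

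**Figure D4:**
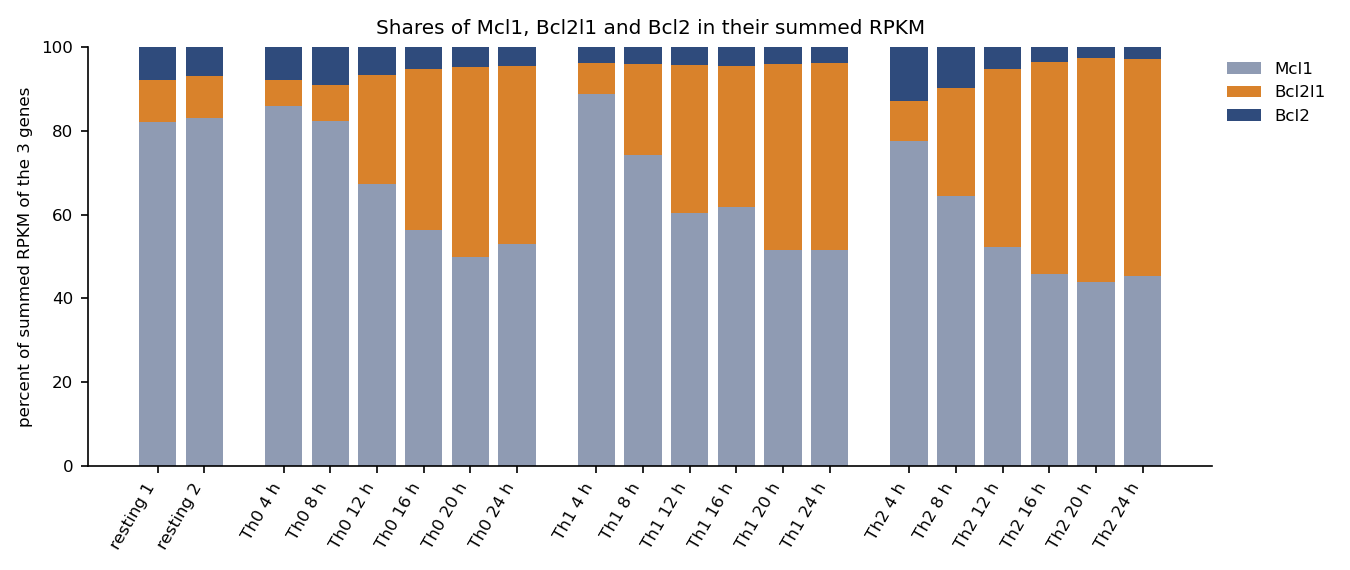
Stacked bars of Mcl1, Bcl2l1 and Bcl2 as percent of their summed RPKM in each of the 20 libraries of the time course. Bcl2l1 grows from 10.0% and 10.1% at rest to 42.5% (Th0), 44.7% (Th1) and 51.7% (Th2) at 24 h.

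Bcl2l11 encodes Bim, the BH3-only protein that ends the life of cytokine-deprived T cells (ENSMUSG00000027381.16, chromosome 2 from 128126038 to 128162547). It had 23.7 and 25.2 RPKM at rest. The values at 4 h were 71.2 (Th0), 41.7 (Th1) and 63.5 RPKM (Th2), and those at 12 h were 56.3 (Th0), 41.3 (Th1) and 75.7 RPKM (Th2). All 18 cultures lay above both resting libraries, between 29.0 RPKM (Th1 at 24 h) and 86.7 RPKM (Th2 at 16 h). The log2 change was 1.22 at 4 h (SE 0.34, adjusted p = 0.0112, limma) and 1.18 at 12 h (SE 0.34, adjusted p = 0.00621, limma). At 24 h, with 39.5 (Th0), 29.0 (Th1) and 30.6 RPKM (Th2), it was 0.42 (SE 0.34, adjusted p = 0.289, limma). By limma, the change at 4 h no longer passed without resting replicate 1 (adjusted p = 0.0800), without resting replicate 2 (adjusted p = 0.0599) or with the Th0 cultures left out (adjusted p = 0.0768). In the first 2 of these fits the single library at rest is taken to vary as the other groups do, while the third keeps both resting libraries. The adjusted p from limma was between 0.000946 and 0.0800 over all alternatives. At 12 h the change was 0.97 without the Th2 cultures, under 2-fold.

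Bbc3 encodes Puma, a BH3-only protein induced by p53 (ENSMUSG00000002083.13, chromosome 7 from 16308393 to 16318205), and its changes ran both ways. The resting libraries had 8.54 and 9.94 RPKM. At 4 h, all 3 cultures were above them, with 15.8 (Th0), 15.8 (Th1) and 11.04 RPKM (Th2), but the log2 change of 0.58 (SE 0.26, adjusted p = 0.0981, limma) did not pass. At 24 h all 3 were below, with 5.34 (Th0), 3.30 (Th1) and 2.41 RPKM (Th2). The log2 change at 24 h was -1.27 (SE 0.26, adjusted p = 4.20e-04, limma), and -0.97 under quantile normalization, short of 2-fold. Whether the changes at 4 and 24 h differ from each other was not tested.

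Pmaip1 encodes Noxa, a BH3-only protein that binds Mcl1 (ENSMUSG00000024521.8, chromosome 18 from 66458533 to 66465565). At rest, 454 reads gave 8.68 RPKM (7.90 to 9.52) and 477 reads 7.66 RPKM (6.99 to 8.38). Every culture was below both resting libraries, from 5.69 RPKM in Th2 at 4 h down to 1.91 RPKM in Th1 at 24 h (140 reads, 1.61 to 2.26). At 4 h, with 5.07 (Th0), 5.54 (Th1) and 5.69 RPKM (Th2), the log2 change was -0.55 (SE 0.17, adjusted p = 0.0201, limma). It was under 2-fold in all 14 alternatives, from -0.63 to -0.32, where the adjusted p from limma lay between 0.0129 and 0.191. The smallest change and highest p came from quantile normalization, and with medians of ratios the adjusted p was 0.0570. At 12 h, Th0 had 3.76, Th1 3.91 and Th2 3.88 RPKM, a log2 change of -0.99 (adjusted p = 1.02e-04, limma), just short of 2-fold. It passed there with a pseudocount of 0.1 (-1.06) and without the haemoglobin genes (-1.07), a setting chosen after seeing the data, as well as without resting replicate 2 (-1.08) and without the Th1 cultures (-1.003). Under quantile normalization it was -0.58, and the adjusted p from limma lay between 4.97e-05 and 0.0116 over the alternatives. At 24 h, with 2.69 (Th0), 1.91 (Th1) and 3.55 RPKM (Th2), the log2 change was -1.46 (SE 0.17, adjusted p = 1.90e-06, limma) and passed in all 14 alternatives that kept the gene.

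Bad and Bid, BH3-only proteins whose activity is known to be set by phosphorylation and by caspase 8 cleavage, did not pass at any time tested. Bad (ENSMUSG00000024959.14, chromosome 19 from 6941861 to 6951899) had 11.3 and 9.22 RPKM at rest. At 12 h it had 7.49 (Th0), 4.86 (Th1) and 4.09 RPKM (Th2), a log2 change of -0.88 (SE 0.29, adjusted p = 0.0149, limma). That change was -1.11 once the Th0 cultures were left out and -1.02 without resting replicate 2, and passed in both. It was -0.56 under quantile normalization (adjusted p = 0.0783, limma) and had an adjusted p of 0.114 (limma) without resting replicate 1. The adjusted p ran from 0.00242 to 0.114 over all alternatives and was above 0.05 with the Th1 cultures left out too. At 24 h, 2 of 3 cultures lay between the resting values of Bad, with 8.98 (Th0), 11.1 (Th1) and 9.87 RPKM (Th2), and its log2 change of -0.033 turned positive when scaled by quantiles (0.22), upper quartiles (0.027) or medians of ratios (0.10). Bid (ENSMUSG00000004446.12, chromosome 6 from 120891930 to 120916853) had 12.7 and 11.9 RPKM at rest, and 21.5 (Th0), 21.5 (Th1) and 23.3 RPKM (Th2) at 24 h. All 15 cultures from 8 h on were above both resting libraries. The log2 change of Bid was 0.68 at 12 h (SE 0.16, adjusted p = 0.00148, limma) and 0.82 at 24 h (SE 0.16, adjusted p = 2.80e-04, limma), both under 2-fold. At 4 h it was -0.12 as deposited and 0.016 under quantile normalization (adjusted p = 0.604 and 0.951, limma).

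Bax, the effector that moves from the cytosol into the mitochondrial membrane (ENSMUSG00000003873.11, chromosome 7 from 45461697 to 45466898), stood at 44.5 RPKM (41.4 to 47.8, from 764 reads) and 46.4 RPKM (43.5 to 49.4, from 949 reads) in the resting libraries. At 4 h, its level was 109 (Th0), 102 (Th1) and 126 RPKM (Th2), a log2 change of 1.29 (SE 0.19, adjusted p = 1.002e-04, limma). At 12 h, it had 141 (Th0), 149.9 (Th1) and 200.4 RPKM (Th2) (3049 reads, 193 to 208), a log2 change of 1.82 (SE 0.19, adjusted p = 9.72e-07, limma). This was the highest level of Bax in each of the 3 cultures. The lowest of the 18 cultures, Th2 at 24 h with 93.2 RPKM (2072 reads, 89.2 to 97.3), was still above both resting libraries. At 24 h, Th0 had 105 RPKM and Th1 109 RPKM, and the log2 change was 1.16 (SE 0.19, adjusted p = 7.83e-05, limma). Under quantile normalization it was 0.96, short of 2-fold.

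Bak1, the effector that resides in the membrane (ENSMUSG00000057789.14, chromosome 17 from 27019810 to 27029009), had 26.6 and 26.5 RPKM at rest and between 20.2 RPKM (Th2 at 24 h) and 36.6 RPKM (Th0 at 20 h) in the cultures. It lay above both resting libraries in 9 cultures and below both in the other 9. None of its changes passed. They were -0.31 at 4 h (SE 0.18, adjusted p = 0.193, limma), -0.089 at 12 h, with 0.033 under median-of-ratios scaling, and 0.080 at 24 h, with -0.016 without the haemoglobin genes. The ratio of Bax to Bak1 was 1.68 and 1.75 at rest and between 3.20 (Th0 at 24 h) and 9.73 (Th2 at 12 h) in the cultures. Of all 10 members, 2 (Bcl2l11 and Bax) lay above both resting libraries in every culture, where 12.4% of all genes did, and 1 (Pmaip1) below both in every culture, where 19.4% did.

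Averaged over the 6 times, the members differed between skewing conditions by less than 2-fold, while at 1 or more single times 5 members differed by at least 2-fold, as did 26.8% of all genes. The ratio of the highest to the lowest culture at 8 h was 3.04 for Bcl2, 2.30 for Bcl2l1, 2.05 for Bcl2l11 and 2.72 for Bad, and that of Bbc3 at 24 h was 2.21. The comparison between cultures held the time point fixed as a factor over all 18 cultures and 10737 genes, so that each of the 6 times gives 1 library per condition. The times stand in for replicates, although the libraries of a condition appear to be successive samples of the same cultures. Whether a second set of cultures would differ in the same way was not tested. At the threshold with a 2-fold change, 0 members differed by limma in any of the 3 comparisons, where the share of all genes was 2.01% between Th2 and Th0, 1.96% between Th2 and Th1 and 0.494% between Th1 and Th0. At an unadjusted p under 0.05, limma gave 6 members between Th2 and Th0 (41.2% of all genes), 4 between Th2 and Th1 (25.3%) and 3 between Th1 and Th0 (16.4%). At an adjusted p under 0.05 with any size of change, 5 members differed between Th2 and Th0 (29.6% of all genes), 2 between Th2 and Th1 (12.2%) and 1 between Th1 and Th0 (2.27%). The comparisons share cultures and are given side by side.

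Among the anti-apoptotic genes, Bcl2l1 was higher in Th2 than in Th0 and Th1 at all 6 times. The mean level was 116 (Th0), 115 (Th1) and 162 RPKM (Th2). The ratio of Th2 to Th0 ranged from 1.25 at 24 h to 2.30 at 8 h, and that of Th2 to Th1 from 1.24 at 24 h to 1.88 at 4 h. The log2 difference was 0.61 for Th2 against Th0 (SE 0.12, adjusted p = 0.00236, limma) and 0.53 for Th2 against Th1 (SE 0.12, adjusted p = 0.00876, limma), and 0.075 for Th1 against Th0 (adjusted p = 0.803, limma). Over the 17 alternatives the adjusted p was at most 0.0110 for the first and 0.0484 for the second. Mcl1 went the other way, with means of 278 (Th0), 229 (Th1) and 227 RPKM (Th2), and it was lower in Th2 than in Th0 at 5 of 6 times (log2 difference -0.29, SE 0.09, adjusted p = 0.0280, limma). The adjusted p of Mcl1 was between 0.0163 and 0.125 over the alternatives. Bcl2l1 and Bid were the 2 members with their highest value in Th2 at every time, which 3.55% of all genes shared.

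Bcl2l11 was lowest in Th1 at all 6 times, which held for 1 of 10 members and for 1.29% of all genes. Its mean was 57.5 (Th0), 37.3 (Th1) and 62.6 RPKM (Th2). Th2 exceeded Th1 by 1.52-fold at 4 h, 2.05-fold at 8 h, 1.83-fold at 12 h, 2.05-fold at 16 h, 1.48-fold at 20 h and 1.05-fold at 24 h. The 24-h cultures of Th1 and Th2, with 29.0 and 30.6 RPKM, were thus close. The log2 difference was 0.69 for Th2 against Th1 (SE 0.11, adjusted p = 5.28e-04, limma), -0.61 for Th1 against Th0 (SE 0.11, adjusted p = 0.00716, limma) and 0.077 for Th2 against Th0 (adjusted p = 0.638, limma). The adjusted p of the second was between 0.00237 and 0.108 over the alternatives.

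Bax and Bak1, the effectors, differed in opposite directions between Th2 and Th0. Bax had means of 117 (Th0), 129 (Th1) and 147 RPKM (Th2), and it was higher in Th2 than in Th0 at 5 of 6 times (log2 difference 0.30, SE 0.10, adjusted p = 0.0424, limma). Bak1 had means of 28.4 (Th0), 27.5 (Th1) and 23.3 RPKM (Th2), and it was lower in Th2 at 6 of 6 times (log2 difference -0.28, SE 0.09, adjusted p = 0.0312, limma). Bid was higher in Th2 than in Th0 at 6 of 6 times, with means of 20.9 and 17.9 RPKM (log2 difference 0.24, SE 0.08, adjusted p = 0.0438, limma). All 3 differences kept their direction in the 17 alternatives, with adjusted p up to 0.252 for Bax, 0.104 for Bak1 and 0.274 for Bid. Bbc3, Pmaip1 and Bad had log2 differences between -0.36 and 0.19 in the 3 comparisons, with adjusted p of at least 0.115 (limma).

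For Bcl2, the difference between cultures changed with time. Th2 was 4.68-fold above Th1 at 4 h, 2.52-fold at 8 h and 1.34-fold at 12 h. At 16, 20 and 24 h the ratio of Th2 to Th1 was 0.925, 0.803 and 0.825. Averaged over the times, the log2 difference was 0.54 for Th2 against Th1 (SE 0.25, adjusted p = 0.189, limma), -0.27 for Th2 against Th0 (adjusted p = 0.434) and -0.80 for Th1 against Th0 (adjusted p = 0.121), and none passed. With only 12 to 24 h the difference of Th2 against Th1 was -0.068. A fit chosen after seeing these values let each difference change linearly with time, so its p is not independent of the ratios that prompted it. Between 4 and 24 h, the log2 difference of Th2 against Th1 fell by 2.51 (SE 0.36, adjusted p = 0.00359, limma), which 1 of 10 members and 0.95% of all genes did in either direction. It passed in each of 14 alternatives (-3.19 to -1.93, adjusted p from 0.00321 to 0.0450 by limma). The change of the difference of Th2 against Th0 was -1.14 (adjusted p = 0.0770, limma) and that of Th1 against Th0 was 1.37 (adjusted p = 0.274, limma).

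After actinomycin, Bcl2l1 and Mcl1 ended lowest among the members relative to 0 h. Each time is 1 library, so no error between samples is known, and RPKM is relative to the RNA that remains. Bcl2l1 had 124, 119, 64.5 and 59.3 RPKM after 0, 1, 2 and 4 h. Mcl1 had 207, 155, 136 and 105 RPKM. Bbc3 had 15.1, 14.8, 12.2 and 8.68 RPKM. These 3 genes were lower at each later time than at the one before. How many of all genes did so was not counted. At 4 h, 1 of 10 members, Bcl2l1, was at least 2-fold lower than at 0 h (log2 change -1.07), as were 7.05% of 10487 genes. The change was -0.98 for Mcl1, -1.03 under median-of-ratios scaling, and -0.79 for Bbc3. Their slopes per hour of -0.30 for Bcl2l1, -0.23 for Mcl1 and -0.21 for Bbc3 lay at percentiles 4.49, 8.38 and 10.4 of all genes, whose median slope was -0.0019. Without the 4-h library the slope of Bcl2l1 was -0.47, that of Mcl1 -0.30 and that of Bbc3 -0.15, and without the 0-h library that of Mcl1 was -0.19 and that of Bbc3 -0.25. An exact permutation of the 4 times, two-sided, gave p = 0.0833 for each of them, the smallest p that 4 times allow, so none could reach 0.05.

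The other 7 members gave no such series. Bcl2 went from 14.8 RPKM (14.2 to 15.4, from 2737 reads) over 12.8 and 16.2 to 16.6 RPKM (15.9 to 17.3, from 2157 reads). Bcl2l11 had 73.3, 69.1, 62.2 and 73.7 RPKM and Bax had 129.7, 154, 112 and 135 RPKM, both ending close to where they began. Bad stood out in 1 library, with 5.65, 5.32, 10.7 and 5.95 RPKM. Pmaip1 had 3.67, 3.45, 2.48 and 2.74 RPKM, a log2 change of -0.41. Bid (19.2 RPKM at 0 h and 17.1 RPKM at 4 h) and Bak1 (24.3 and 31.9 RPKM) had log2 changes of -0.16 and 0.39. Slopes were below that of the median gene for 6 of 10 members, and a median splits all genes evenly. Bcl2l1 as a share of the anti-apoptotic sum went from 35.9% to 32.8%, and Bcl2 from 4.27% to 9.18%, while the sum went from 347 to 181 RPKM.

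**Figure D5:**
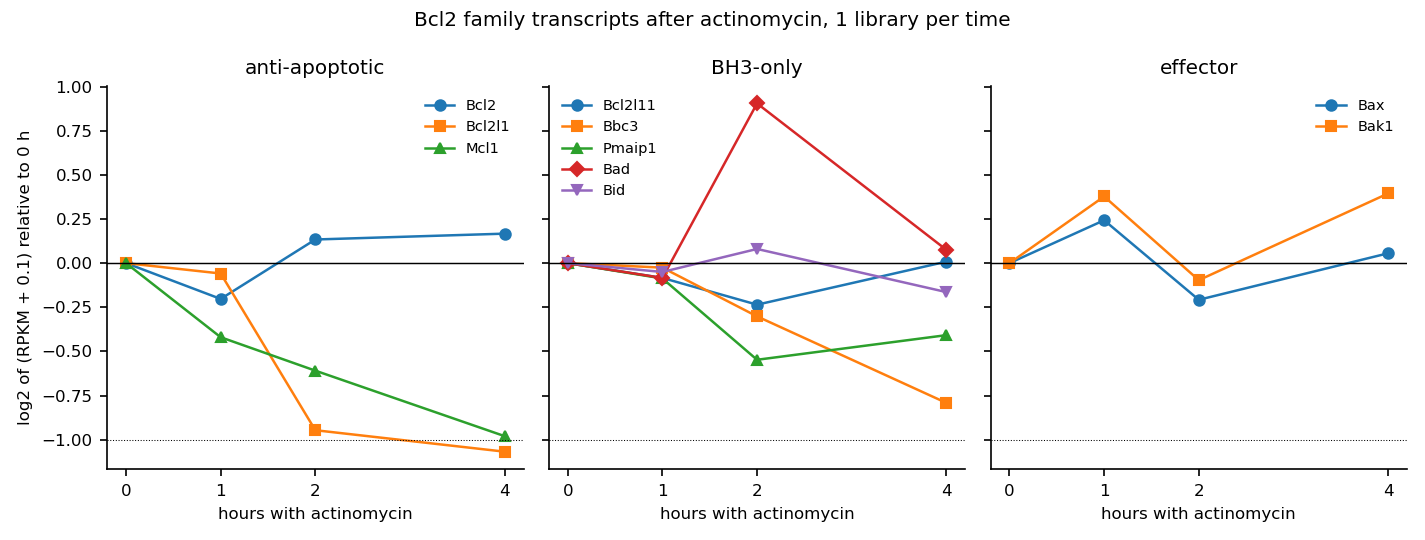
Log2 of RPKM + 0.1 relative to 0 h against hours with actinomycin for the anti-apoptotic, BH3-only and effector genes, 1 library per time; the dotted line marks 2-fold lower. Bcl2l1 ends at -1.07 and Mcl1 at -0.98, and Bad has a single high value at 2 h.

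The genes with the most similar course over the 20 libraries of the time course, by Pearson r of log2(RPKM + 0.5) among 10896 other genes, are given as a description, since libraries share cells and times. For Bcl2l1 they were Gapdh (r = 0.991), Ube2cbp (0.988) and Gm3839 (0.987). For Bcl2 they were Lyst (0.931), Rasgrp1 (0.891) and Cnp (0.881), and for Mcl1 Arl6ip5 (0.974), Fem1c (0.966) and Ankrd44 (0.966). Bcl2l1 thus had closer neighbours than Bcl2. For Bax they were Zbtb17 (0.970), Orai1 (0.969) and Slc39a6 (0.968), and for Bak1 Glud1 (0.857), Ptms (0.830) and Ankrd40 (0.830). For Bcl2l11 they were N4bp1 (0.870), Il4i1 (0.856) and Zfp1 (0.856), for Bbc3 Angel1 (0.904), Taf8 (0.894) and Vgll4 (0.893), and for Bid Hspa8 (0.976), Naa50 (0.975) and Ipo5 (0.975). For Pmaip1 they were Fbxo30 (0.952), Clec1b (0.939) and Cd36 (0.937), and for Bad Cyb5a (0.910), Hist1h4d (0.907) and Tubd1 (0.878). Among the members themselves, the highest r was that of Bcl2l1 with Bid (0.920), and the lowest were those of Bcl2l1 with Pmaip1 (-0.807) and with Mcl1 (-0.805).

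Of 16 other genes of the Bcl2 family, 14 were in the table and 8 were tested. At 4 h, 2 had risen (2.61% of all genes) and 0 had fallen (7.97%), by limma, with 2 lower at an unadjusted p under 0.05 (25.7%). At 12 h, 2 had risen (10.7% of all genes) and 1 had fallen (16.4%), and at 24 h 2 had risen (12.7%) and 2 had fallen (17.4%). Both that rose were A1 genes, anti-apoptotic genes induced through NF-kB, whose copies are near-identical so that reads could be split between them. Bcl2a1b went from 23.6 RPKM at rest to 184 RPKM at 12 h (log2 change 2.94, adjusted p = 4.00e-07, limma) and Bcl2a1c from 0.658 to 4.30 RPKM (2.07, adjusted p = 4.39e-05, limma). Bnip3l, a mitochondrial protein of mitophagy and of red cell maturation, fell from 137 to 53.9 RPKM at 24 h (-1.35, adjusted p = 2.99e-04, limma). Bmf, a BH3-only gene, fell from 2.79 to 0.605 RPKM at 24 h (-1.57, adjusted p = 1.94e-05, limma). Bcl2l10 was listed at 0 at rest and at 24 h. By limma, 0 of the 8 passed between cultures, and at an unadjusted p under 0.05 there were 1 higher and 1 lower in Th2 relative to Th0 (41.2% of all genes), 0 in Th2 relative to Th1 (25.3%) and 1 higher in Th1 relative to Th0 (16.4%). The median log2 change of the 8 was 0.048, -0.23 and 0.23 at 4, 12 and 24 h, against -0.045, -0.070 and -0.036 over all genes.

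Downstream of the effectors, 18 genes of the apoptosome, caspases and their inhibitors were all tested. At 4 h, 1 had risen (2.61% of all genes), Birc3, an inhibitor of apoptosis, from 63.8 to 193 RPKM (log2 change 1.59, adjusted p = 5.28e-06, limma). At 12 h, 1 had risen (10.7% of all genes). This was Cycs, cytochrome c itself, which went from 31.3 RPKM at rest to 77.2 RPKM at 12 h (1.29, adjusted p = 2.33e-04, limma) and 87.4 RPKM at 24 h. Birc5 (survivin), used in cell division, was 41.9 RPKM at rest, 4.62 RPKM at 12 h (-3.06, adjusted p = 1.76e-09, limma) and 12.0 RPKM at 24 h. At 24 h, 3 had risen (12.7% of all genes), Cycs, Endog (1.40) and Aifm1 (1.02, named after its value was seen), and 2 had fallen (17.4%), Birc5 and the caspase Casp9 (-1.32). The median change of the 18 was 0.031, -0.088 and -0.010 at 4, 12 and 24 h, against -0.045, -0.070 and -0.036 over all genes.

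In the death receptor pathway, 1 of 11 genes had risen at 4 h (2.61% of all genes) and at 12 h (10.7%). At 24 h, 0 passed by limma, with 3 higher (33.3% of all genes) and 4 lower (35.2%) at an unadjusted p under 0.05. The gene was Fasl, the ligand of Fas, with 6.40 RPKM at rest, 15.8 RPKM at 4 h (log2 change 1.11, adjusted p = 0.0212, limma), 22.3 RPKM at 12 h (1.73, adjusted p = 4.45e-04, limma) and 10.4 RPKM at 24 h. Of 9 genes of mitochondrial shape and outer-membrane channels, 0 passed by limma at 4 h (at an unadjusted p under 0.05, 2 lower, against 25.7% of all genes) and at 12 h (3 higher, against 30.6%, and 1 lower, against 34.7%). At 24 h 1 had risen (12.7% of all genes), the channel gene Vdac3, from 39.9 to 81.9 RPKM (1.03, adjusted p = 4.30e-06, limma). By limma, 0 genes of these 2 lists and of the apoptosome list passed between cultures. At an unadjusted p under 0.05 (41.2% of all genes), 5 death receptor genes were lower in Th2 than in Th0, 2 mitochondrial genes were higher, and 5 apoptosome genes were higher and 5 lower. Relative to Th1 (25.3% of all genes), 5 death receptor genes were lower in Th2, and 2 apoptosome genes were higher and 3 lower. In Th1 relative to Th0 (16.4% of all genes), 2 death receptor genes and 1 apoptosome gene were lower.

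Among 26 regulators of the family, of which 25 were tested, 8 had risen (2.61% of all genes) and 2 fallen (7.97%) at 4 h. At 12 h, 6 had risen (10.7%) and 5 fallen (16.4%), and at 24 h, 6 had risen (12.7%) and 6 fallen (17.4%). Il2ra, a chain of the IL-2 receptor, went from 18.9 RPKM at rest to 241 RPKM at 24 h (log2 change 3.63, adjusted p = 3.87e-08, limma). Pim2, a kinase of survival signals, went from 25.3 to 299 RPKM (3.47, adjusted p = 1.88e-06, limma), and Myc from 42.1 RPKM to 266 RPKM at 12 h (2.63, adjusted p = 4.42e-05, limma). Zfp36, which binds AU-rich elements in transcripts, fell from 312 to 29.3 RPKM at 24 h (-3.40, adjusted p = 9.72e-11, limma) and its relative Zfp36l2 from 226 RPKM to 49.7 RPKM at 12 h (-2.18, adjusted p = 3.60e-06, limma). Il7r, the IL-7 receptor that maintains Bcl2 in resting T cells, was 108 RPKM at rest, 247 RPKM at 4 h and 18.8 RPKM at 24 h (-2.54, adjusted p = 0.00754, limma). Il4ra, the IL-4 receptor, stood at 39.6 RPKM at rest and 212 RPKM at 4 h (1.99, adjusted p = 0.0397, limma).

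Between cultures, 1 regulator passed between Th2 and Th0 (2.01% of all genes), 3 between Th2 and Th1 (1.96%) and 1 between Th1 and Th0 (0.494%). Il7r had means of 120.0 (Th0), 109 (Th1) and 39.7 RPKM (Th2) (log2 difference -1.68 against Th0, adjusted p = 1.12e-05, and -1.45 against Th1, adjusted p = 5.71e-05, limma). Il4ra was lowest in Th1, with means of 124 (Th0), 40.6 (Th1) and 125 RPKM (Th2) (Th2 against Th1 1.27, adjusted p = 0.00150, and Th1 against Th0 -1.42, adjusted p = 0.00304, limma). Stat5a had means of 119 (Th0), 78.9 (Th1) and 161 RPKM (Th2) (Th2 against Th1 1.001, adjusted p = 1.68e-05, limma). After actinomycin, 6 of the 25 regulators with a value were at least 2-fold lower at 4 h, against 7.05% of all genes, a count of single libraries with no test. Trib1 went from 18.1 to 4.42 RPKM, while Il7r went from 15.1 to 29.4 RPKM. Of the other family genes with a value, 1 of 7 was lower, Bcl2a1b, from 149.7 to 56.9 RPKM.

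Markers of other spleen cells moved with activation, in the same comparisons as the members. In bulk libraries, fewer cells of a type and less RNA per cell cannot be told apart. For red cells, 11 of 14 markers were in the table, and 3, 11 and 11 of the 11 had fallen at 4, 12 and 24 h, against 7.97%, 16.4% and 17.4% of all genes. The same shares apply to the falls of the markers below. Their most abundant gene at rest was the haemoglobin gene Hbb-bs, at 14504 RPKM, against 65.1 RPKM at 24 h. Their summed level was 39020 and 42570 RPKM in the resting libraries, 34320.3, 29460.3 and 47213 RPKM in Th0, Th1 and Th2 at 4 h, 8331, 5354 and 5101 RPKM at 12 h, and 204, 142 and 213 RPKM at 24 h. None was at 0 at rest. Leaving out the haemoglobin genes and scaling the rest up, a setting chosen after seeing the data, kept every member's call at 4 and 24 h and added that of Pmaip1 at 12 h. The log2 change of Bcl2l1 at 24 h was then 2.51 and that of Bax 1.06.

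Of 14 macrophage and monocyte markers, 10 were tested, and 9, 10 and 10 had fallen at 4, 12 and 24 h. C1qa was the most abundant at rest, with 108 RPKM, and had 0.229 RPKM at 24 h. The summed level of the 14 was 625 and 642 RPKM before stimulation, 66.6, 52.4 and 86.1 RPKM in Th0, Th1 and Th2 at 4 h, 32.6, 29.9 and 18.6 RPKM at 12 h, and 15.2, 15.3 and 11.3 RPKM at 24 h. Of 10 B cell markers, 9 were tested, and 3, 8 and 9 had fallen. Cd79b, the most abundant, went from 22.2 RPKM to 4.12 RPKM at 24 h, and the sum was 87.4 and 97.6 RPKM before stimulation, 52.5, 44.9 and 65.2 RPKM at 4 h, 27.8, 21.1 and 27.7 RPKM at 12 h, and 15.9, 11.4 and 19.9 RPKM at 24 h. These sums were lower than rest in every culture.

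Of 8 CD8 T and NK cell markers, 1, 3 and 5 had fallen at 4, 12 and 24 h and 1 had risen at 24 h (12.7% of all genes). Gzma was the most abundant, with 67.4 RPKM at rest, and the summed level was 165 and 163 RPKM before stimulation, 118, 223 and 191 RPKM in Th0, Th1 and Th2 at 4 h, 65.3, 94.2 and 85.6 RPKM at 12 h, and 54.0, 62.9 and 77.8 RPKM at 24 h. The 1 that rose, at 24 h, was Eomes (log2 change 1.02), a factor that activated T cells also use. Of 8 granulocyte markers, 4 were tested. At 4 h, 0 passed by limma, also 0 at an unadjusted p under 0.05, and 2 had fallen at 12 h and 2 at 24 h, with Mpo the most abundant at 6.49 RPKM at rest. Their sum was 14.5 and 12.7 RPKM before stimulation, 8.73, 13.9 and 9.59 RPKM at 4 h, 12.4, 8.18 and 3.67 RPKM at 12 h, and 2.04, 0.901 and 2.82 RPKM at 24 h, and Retnlg was at 0 in all 3 cultures at 24 h. The part of these cells in the changes of the members against resting cells was not tested.

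Between cultures, 11 red cell, 9 macrophage and monocyte, 7 B cell, 8 CD8 T and NK cell and 3 granulocyte markers were tested. Those that passed were the following. For Th2 against Th0 (2.01% of all genes), Lyz2 was lower (log2 difference -1.10) and Gzma higher (1.05). For Th2 against Th1 (1.96%), Cd79b was higher (1.11) and Ncr1 lower (-1.07), and for Th1 against Th0 (0.494%), Ncr1 (1.25) and Gzma (1.17) were higher (limma, adjusted p between 2.41e-04 and 0.00333 for these 6). Their part in the culture differences of the members was not tested. In the actinomycin libraries, the summed level of macrophage markers was 58.9, 69.6, 83.0 and 66.8 RPKM after 0, 1, 2 and 4 h and that of red cell markers was 2524, 1406, 1152 and 2280 RPKM, while that of CD4 T cell markers was 1984, 2176, 2114 and 2097 RPKM. Granulocyte markers summed to 17.6, 19.0, 14.0 and 7.43 RPKM, CD8 T and NK cell markers to 25.3, 22.9, 24.5 and 19.5 RPKM, and B cell markers to 4.07, 4.05, 4.23 and 5.26 RPKM. Of the 4 granulocyte markers, 3 were at least 2-fold lower at 4 h than at 0 h (7.05% of all genes), with a median log2 change of -1.62. Of 4 macrophage markers with a value, 1 was at least 2-fold lower, Lyz2, from 45.9 to 21.5 RPKM. Another, Cd68, was at least 2-fold higher, from 3.82 to 30.5 RPKM, as were 376 of 10487 genes. Of 8 red cell markers, 1 was at least 2-fold lower and 1 at least 2-fold higher. Whether the mix of cells differed between these libraries was not tested.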

How the data were processed

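The 24 libraries were grouped by their labels as 2 resting, 18 cultured (3 conditions at 6 times) and 4 with actinomycin. The authors aligned reads with BWA to GRCm38 per the submitters' processing notes and deposited RPKM values per gene, used here unchanged. Time points and cultures were tested on log2(RPKM + 0.5) with limma 3.58.1 in R 4.3.3 (trend, empirical Bayes), over genes whose mean reached 1 RPKM, with Benjamini-Hochberg adjustment. Time fits had time as a factor over 20 libraries, and culture fits time and culture over 18. A gene passed at an adjusted p under 0.05 and at least 2-fold. The fits were tested on simulated data with known changes. Actinomycin slopes were least-squares fits of log2(RPKM + 0.1) with an exact two-sided permutation, over genes with at least 1 RPKM at 0 h. Reads behind a value were taken from whole multiples within 0.001. Other steps used Python 3.11.15, numpy 2.4.6, pandas 2.3.3, scipy 1.17.1 and matplotlib 3.10.9.

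Named were the 10 members, from each pathway list and comparison up to 2 passing genes with the largest rise and up to 2 with the largest fall, for each member the 3 genes with the highest Pearson r, and of each marker list the most abundant gene at rest and those at 0. Members and lists were chosen with earlier results of these data known. Alternatives were pseudocounts of 0.1 and 1, a minimum mean of 5 RPKM, scaling by quantiles, by upper quartiles or by medians of ratios, each library or series left out, and late times only. Leaving out haemoglobin genes and the fit of culture with linear time were chosen after seeing the data.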

Additional observations from a re-analysis of the deposited data

Results flagged for a closer look

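For Bcl2, the log2 difference of Th2 from Th1 cultures changed by -2.51 between 4 and 24 h (SE 0.36, adjusted p = 0.00359, limma, adjusted over 10737 genes). It is listed here because of a test of the difference itself, the interaction of culture with linear time over all 18 cultures. That fit was chosen after seeing the data, the falling ratio included, so its p is not independent of what prompted it. Th2 was above Th1 at 4, 8 and 12 h and below it at 16, 20 and 24 h, with ratios from 4.68 at 4 h to 0.803 at 20 h. Each ratio rests on 1 library per culture. With all 18 cultures and the settings of the report, no other member passed for any pair of cultures. For Th2 against Th0, Bbc3, Bad and Bax each passed in 1 of 14 alternatives, with lowest adjusted p over the alternatives of 0.0247, 0.00281 and 0.00222 (limma) and highest of 0.870, 0.924 and 0.519.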

How the results depend on the processing

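Of 1228 values recomputed under 28 settings, 1163 stayed on the same side of the threshold with the same sign, or near their size, 35 changed direction, 6 no longer passed, 6 newly passed and 18 moved. The causes were not tested except where stated.

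Against resting cells at 4 h, Bcl2l1 changed by 0.00068 with a pseudocount of 1, 0.076 under median-of-ratios and 0.058 under upper-quartile scaling, and Bid by 0.016 under quantile normalization. With a mean of at least 5 RPKM, 646 of 8478 genes passed at 4 h, against 1152 of 10897 with a mean of at least 1 RPKM. At 12 h, Pmaip1 passed with a pseudocount of 0.1 (-1.06) and without haemoglobin genes (-1.07), and Bak1 was 0.033 under median-of-ratios scaling. At 24 h, quantile normalization gave Bbc3 -0.97 and Bax 0.96. It left 2 members past the threshold, where 3475 of 10897 genes passed. At the same time, Bad was 0.22 under quantile, 0.027 under upper-quartile and 0.10 under median-of-ratios scaling. Bak1 was -0.016 without haemoglobin genes. Under median-of-ratios scaling, Bcl2l1 (-1.12) and Mcl1 (-1.03) were both at least 2-fold lower after 4 h of actinomycin.

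With only 12 to 24 h, the difference of Th2 from Th1 was -0.068 for Bcl2, and that of Th1 from Th0 was -0.077 for Bcl2l1, -0.16 for Bbc3, -0.050 for Pmaip1 and -0.066 for Bid. With a pseudocount of 0.1, Bbc3 differed by -0.00026 between Th1 and Th0.

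With 1 library, series or time left out in turn, values at 4 h ranged from -0.13 to 0.97 for Bcl2. They ranged from -0.28 to 0.17 for Bcl2l1 and from 1.06 to 1.44 for Bcl2l11. At 12 h they ranged from -0.39 to 0.066 for Bcl2, 0.97 to 1.40 for Bcl2l11 and -1.08 to -0.91 for Pmaip1. The values of Bad ranged from -1.11 to -0.71 and those of Bak1 from -0.17 to 0.045 at that time. At 24 h they ranged from -0.17 to 0.11 for Bad and -0.043 to 0.31 for Bak1. Between cultures, Mcl1 ranged from -0.11 to 0.0013 (Th2 from Th1), and for Th1 from Th0 Bcl2l1 ranged from -0.086 to 0.16, Bbc3 from -0.13 to 0.13, Pmaip1 from -0.033 to 0.091 and Bid from -0.026 to 0.14. Of the actinomycin slopes, that of Bcl2 ranged from 0.042 to 0.11, Bcl2l1 from -0.47 to -0.27, Mcl1 from -0.30 to -0.19, Bbc3 from -0.25 to -0.15, Pmaip1 from -0.27 to -0.082, Bcl2l11 from -0.12 to 0.044, Bad from -0.014 to 0.45, Bid from -0.050 to 0.040, Bax from -0.10 to 0.014 and Bak1 from -0.048 to 0.099.

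Pmaip1 had no value with a mean of at least 5 RPKM. Depth limits low genes most: the fewest reads behind a Pmaip1 value were 118, at 20 h in Th0.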
